A study of Mus musculus with 64 samples.

Results

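The heat shock and DnaJ chaperone genes are a group of 71 genes, out of 18194 genes with a probe set on the array, chosen by symbol alone. All symbols that begin with Dnaja, Dnajb or Dnajc and a number, and those of the Hsp90, Hsp70, Hsp110, small heat shock and mitochondrial chaperonin genes that begin with Hsp, were taken. Each gene was read from its probe set with the highest mean log2 intensity over the 64 arrays. The group held 4 DnaJA, 13 DnaJB, 27 DnaJC, 11 Hsp70, 3 Hsp110 (Hsph1, Hspa4 and Hspa4l), 2 Hsp90 and 8 small heat shock genes, the mitochondrial chaperonin pair Hspd1 and Hspe1, and Hspbap1, which encodes a protein that binds a small heat shock protein. Hsp90ab1 and Dnajc19 are not analysed here.

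The samples were total RNA of hippocampus and of prefrontal cortex from 4-month-old mice of the B6SJLF1 background. The hippocampal groups were Tg2576 mice given PF-04447943, Tg2576 mice given vehicle, wild-type (non-transgenic littermate) mice given PF-04447943 and wild-type mice given vehicle, and the same 4 groups made up the prefrontal cortex samples. Tg2576 mice over-express a human APP gene with a mutation of familial Alzheimer's disease, driven by a prion protein promoter, and at this age model a stage before most plaques form. PF-04447943 inhibits phosphodiesterase 9A, an enzyme that breaks down cyclic GMP, and was delivered for 28 days from a pump under the skin, as was the vehicle. Each of the 8 groups held 8 arrays. The regions were dissected by hand and hold many cell types, so in these bulk samples fewer cells of a type and less RNA per cell cannot be told apart.

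Chaperones bind unfolded or partly folded proteins and help them to fold, to be carried across membranes or to be degraded. Hsp70 proteins do this by binding and releasing their clients as they use ATP, and DnaJ proteins bring the client and switch on the ATP use, so that the choice of DnaJ protein largely sets where and on what an Hsp70 works. Hsp110 proteins exchange the nucleotide of Hsp70, Hsp90 proteins take clients late in folding, and small heat shock proteins hold unfolded clients without using ATP. Part of the group is induced by proteotoxic stress through heat shock factors, which bind the heat shock element, inverted repeats of GAA, and the chaperones of the endoplasmic reticulum are induced through a different sequence, the endoplasmic reticulum stress element. In neurons, cytosolic Hsp70 with Dnajc5 and Dnajc6 also serves the synaptic vesicle cycle, and several members bind tau or amyloid peptides in the test tube.

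The promoters of 6 members show these 2 kinds of element. Each sequence below is the 250 bases before the transcription start from RefSeq (GRCm38.p6), 5′ to 3′ on the strand of the gene. Capitals mark matches to the heat shock element (GAANNTTC or TTCNNGAA, alone or overlapping) in the first 4 genes and to the endoplasmic reticulum stress element (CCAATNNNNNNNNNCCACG on either strand) in the last 2. Hspa1b (chr17:34959239-34959488, minus strand), Hsph1 (chr5:149636316-149636565, minus strand), Hspb1 (chr5:135887669-135887918, plus strand) and Hspe1 (chr1:55087898-55088147, plus strand) encode an inducible cytosolic Hsp70, an Hsp110, a small heat shock protein and the mitochondrial co-chaperonin. Hspa5 (chr2:34771840-34772089, plus strand) and Hsp90b1 (chr10:86705445-86705694, minus strand) encode the main Hsp70 and the Hsp90 of the endoplasmic reticulum.
Hspa1b: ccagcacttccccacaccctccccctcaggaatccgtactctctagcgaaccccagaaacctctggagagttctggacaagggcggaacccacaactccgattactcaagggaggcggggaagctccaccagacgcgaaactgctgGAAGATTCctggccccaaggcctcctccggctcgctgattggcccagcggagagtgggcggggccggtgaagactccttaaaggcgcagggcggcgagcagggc
Hsph1: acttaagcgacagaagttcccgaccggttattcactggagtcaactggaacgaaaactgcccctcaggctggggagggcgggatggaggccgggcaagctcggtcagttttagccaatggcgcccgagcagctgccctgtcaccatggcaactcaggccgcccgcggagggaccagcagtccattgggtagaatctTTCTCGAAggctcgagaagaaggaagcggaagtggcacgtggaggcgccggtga
Hspb1: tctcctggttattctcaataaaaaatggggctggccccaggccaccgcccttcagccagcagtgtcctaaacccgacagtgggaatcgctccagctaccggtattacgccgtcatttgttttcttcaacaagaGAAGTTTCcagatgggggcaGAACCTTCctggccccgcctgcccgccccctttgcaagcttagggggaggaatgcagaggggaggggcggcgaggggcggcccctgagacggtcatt
Hspe1: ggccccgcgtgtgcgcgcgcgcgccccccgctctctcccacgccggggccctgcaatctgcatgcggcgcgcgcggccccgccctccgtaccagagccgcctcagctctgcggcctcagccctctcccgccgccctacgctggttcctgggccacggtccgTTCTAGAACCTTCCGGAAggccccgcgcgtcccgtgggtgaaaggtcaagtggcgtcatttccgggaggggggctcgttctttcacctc
Hspa5: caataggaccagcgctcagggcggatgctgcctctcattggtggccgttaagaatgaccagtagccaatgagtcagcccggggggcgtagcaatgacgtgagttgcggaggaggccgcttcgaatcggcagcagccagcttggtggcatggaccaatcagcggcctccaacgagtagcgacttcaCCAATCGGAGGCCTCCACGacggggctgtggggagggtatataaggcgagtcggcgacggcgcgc
Hsp90b1: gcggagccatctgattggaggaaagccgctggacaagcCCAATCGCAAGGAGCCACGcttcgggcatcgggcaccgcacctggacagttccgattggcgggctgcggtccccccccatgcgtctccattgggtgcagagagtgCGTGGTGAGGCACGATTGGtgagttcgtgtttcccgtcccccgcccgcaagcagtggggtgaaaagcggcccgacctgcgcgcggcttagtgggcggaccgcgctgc
The first match began 104 bases before the start in Hspa1b, 54 in Hsph1, 117 in Hspb1 and 89 in Hspe1, where 2 trimers overlap, and 65 bases before it in Hspa5 and 212 in Hsp90b1, which holds the element once on each strand. Hsph1 has 2 starts in the table, and the one shown was chosen by its matches from 250 bases before to 50 after the start. Its trimer lies after the start, outside the bases printed.

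A promoter was found for 58 of the 71 members among the 27025 genes of the table. In the window that runs from 250 bases before to 50 after the start, the heat shock trimer (GAANNTTCNNGAA or TTCNNGAANNTTC) was present in 4 members, Dnajb6, Hspd1, Hspe1 and Hsph1, which is 6.90% of the 58, against 0.662% of all genes. The dimer, which each trimer contains, was present in 16 members (27.6%, against 17.0% of all genes). The endoplasmic reticulum stress element was present in 3 members, Dnajc3, Hsp90b1 and Hspa5 (5.17%, against 0.137%), while its first part alone, CCAAT on either strand, was about as common in members (41.4%) as in all genes (41.1%). The TATAAA sequence on either strand was present in 5.17% of members and 15.7% of all genes. Each member was counted on its own, with no check for bases that 2 members share, and the near-identical Hspa1a and Hspa1b both count for the dimer. A match is only a match of letters.

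The intensity values were the authors' RMA values. The median intensity of an array ran from 92.1 to 100 in hippocampus and from 90.9 to 101 in prefrontal cortex. The signal range, taken as the interquartile range of log2 intensity over all probe sets, still differed between arrays after the authors' normalization. It ran from 3.37 to 3.74 in hippocampus and from 3.38 to 3.90 in prefrontal cortex. In both regions arrays with replicate numbers 1 to 4 differed from those with numbers 5 to 8, although the labels name no batch. With number as a term, 7277 of 12933 genes (56.3%) differed between the number sets in prefrontal cortex and 1871 of 12967 (14.4%) in hippocampus, and so did 39 of 63 members and 12 of 61. In hippocampus 34.4% of members, against 31.7% of genes, correlated with the signal range with a size of r over 0.5, and in prefrontal cortex 68.3%, against 56.4%. Adult neuronal markers such as Snap25 were high in both regions. The hippocampal array of Tg2576 mice given PF-04447943 with replicate number 1 stood apart. Its dentate granule cell markers (Prox1, C1ql2, Dsp, Tdo2 and Lct) averaged log2 5.53. After rounding, that mean equalled the top of the 4.79 to 5.53 of prefrontal cortex, although unrounded it lay above every cortical array. It was below the 7.86 to 9.22 of the other 31 hippocampal arrays. The cortical marker level of this array, 9.75, was the highest of the hippocampal arrays. Its CA pyramidal markers, as on every hippocampal array, were at or above 8.96, against at most 8.48 in prefrontal cortex. Astrocyte markers too did not overlap between regions (at least 11.25 in hippocampus and at most 11.23 in prefrontal cortex). Results that rest on this array are given with and without it.

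The test compared genes whose probe set lay at or above the 40th percentile of probe sets by mean, which is log2 5.94 for hippocampus, 5.91 for prefrontal cortex and 5.93 when all 64 arrays were used. It kept 61 members for the hippocampal tests, and 63 for those of prefrontal cortex and of both regions together. In hippocampus the members nearest the limit were Dnajb13 (5.93) and Hspa12b (5.91) below it and Hspb2 (6.12) and Dnajc25 (6.28) above it. Hspb3 and Hspa12b lay under the hippocampal limit (means of 5.81 and 5.91) and entered the tests over both regions through their cortical level. The 8 members below the limit in both regions enter no count of calls. A call is an adjusted p under 0.05 in limma, adjusted over all genes tested.

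Hippocampus was set against prefrontal cortex in all 4 groups. Over the 4 groups together, 39 of 63 members (61.9%) differed between hippocampus and prefrontal cortex, 13 higher and 26 lower in hippocampus. This is no larger a share than among all genes, of which 72.1% were called (33% higher and 39% lower). Of the 61 members at or above the limit in each region, 37 were called, 13 higher and 24 lower, against 71.8% of 12765 genes, a filter chosen after seeing the data. The median log2 difference, hippocampus minus prefrontal cortex, was -0.059 over the members and -0.017 over all genes tested. All 39 called members had the same sign in each of the 4 group pairs, and 13 were called in each pair, in 1 direction, as were 28.4% of genes. Single pairs gave 25 called members in vehicle-treated wild type (44.9% of genes), 20 in wild type given PF-04447943 (43.1%), 29 in vehicle-treated Tg2576 (54.9%) and 21 in Tg2576 given PF-04447943 (41.4%). The 13 were Dnaja4, Dnajb12, Dnajc1 and Hspa2, higher in hippocampus, and Dnajb1, Dnajb4, Dnajb6, Dnajc10, Dnajc11, Dnajc12, Dnajc21, Dnajc25 and Hspb3, lower, where Hspb3 was tested only through its cortical level.

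**Figure D1:**
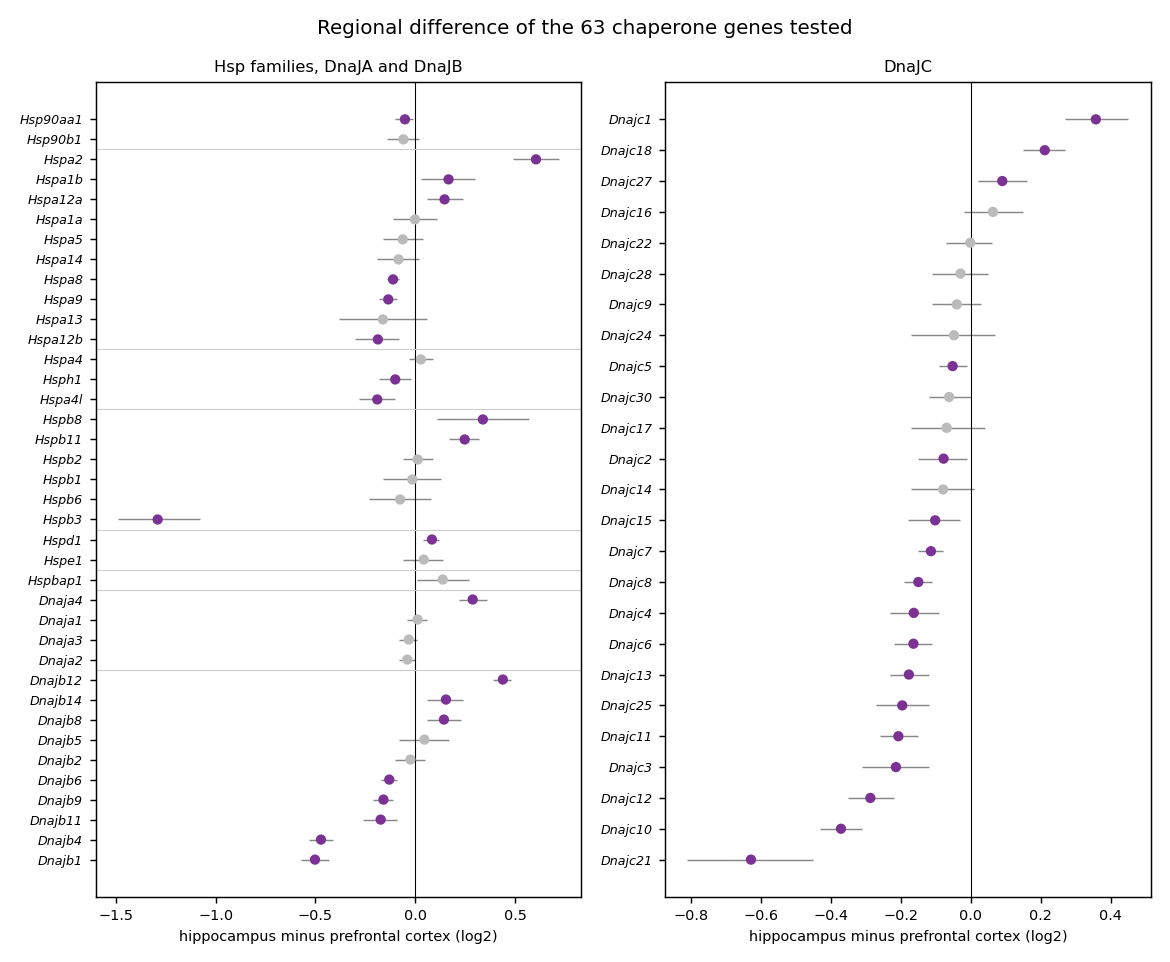
Log2 difference, hippocampus minus prefrontal cortex, of the 63 tested members over all 4 groups, grouped by family and drawn with 95% confidence intervals (32 arrays per region). Members with an adjusted p under 0.05 are purple, and they lie on both sides of 0. Members above the filter limit in each region ran from -0.63 for Dnajc21 to 0.60 for Hspa2, while Hspb3, at -1.29, lay under the limit in hippocampus.

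The DnaJB genes encode partners of Hsp70 in the cytosol, the nucleus and the endoplasmic reticulum, and 3 of the 10 tested were higher and 5 lower in hippocampus. Dnajb12, which encodes a membrane-anchored DnaJ protein of the endoplasmic reticulum that faces the cytosol, had a lowest, median and highest log2 intensity of 8.77, 9.0 and 9.16 in hippocampus, against 8.40, 8.55 and 8.71 in prefrontal cortex. Every hippocampal array lay above every prefrontal cortex array. The difference was 0.44 ± 0.02 (SE), a 1.36-fold higher level (8.99 ± 0.11 in hippocampus and 8.55 ± 0.08 in prefrontal cortex, SD, n = 32 each), with an adjusted p of 9.18e-26 in limma. Dnajb4, a cytosolic partner of Hsp70, was at 10.27, 10.47 and 10.72 in hippocampus and at 10.73, 10.99 and 11.31 in prefrontal cortex. Its highest hippocampal array lay just below its lowest cortical array, and the difference was -0.47 ± 0.03 (adjusted p = 7.94e-21). These were the 2 members of 63 whose regions did not overlap, against 1.88% of genes.

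Dnajb1, the stress-inducible DnaJ protein that works with Hspa8 and Hsph1 to take protein aggregates apart in vitro, was at 10.24, 10.48 and 10.75 in hippocampus, against 10.73, 11 and 11.28 in prefrontal cortex. The ranges touched at their ends, and the difference was -0.50 ± 0.04 (adjusted p = 2.68e-19), or 1.42-fold lower. Dnajb6, a strong suppressor of polyglutamine aggregation, was lower by less (-0.13). Dnajb14, a relative of Dnajb12, and Dnajb8 were higher (0.15 and 0.14), although 1 further Dnajb14 probe set went the other way (-0.22, adjusted p = 6.11e-05).

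**Figure D2:**
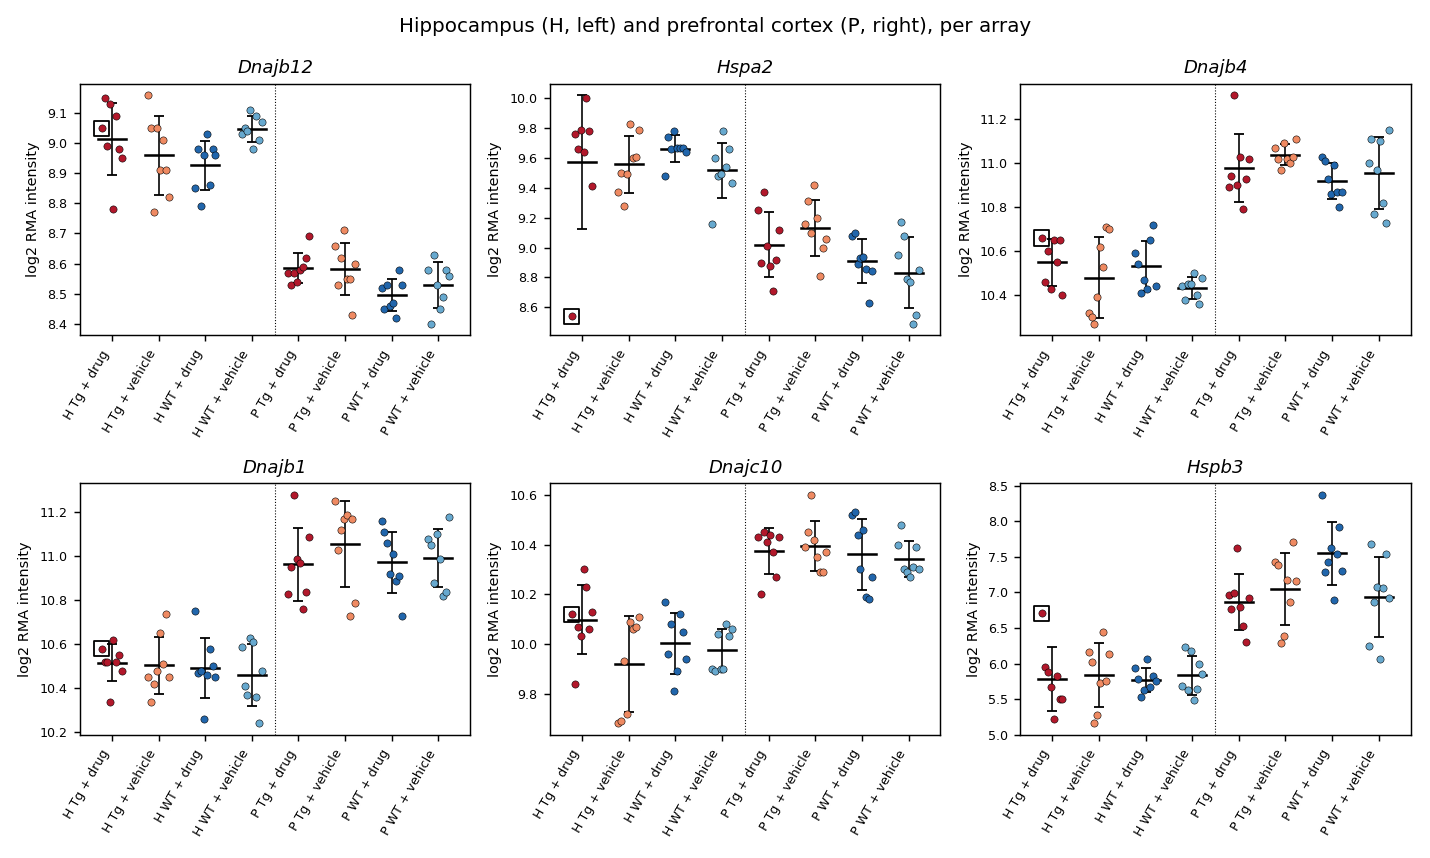
Log2 intensity on each of 32 hippocampal and 32 prefrontal cortex arrays of Dnajb12, Hspa2, Dnajb4, Dnajb1, Dnajc10 and Hspb3, with mean and SD, hippocampus on the left. The square marks the hippocampal array with the low dentate markers, which is the lowest hippocampal array of Hspa2 at 8.54.

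Among Hsp70 genes, 3 of 10 were higher and 3 lower. Hspa2, an Hsp70 abundant in testis and also made in brain, was the member most raised in hippocampus, with 8.54, 9.64 and 10 there and 8.49, 8.94 and 9.42 in prefrontal cortex. Most hippocampal arrays lay above all cortical arrays, and the lowest was the array with the low dentate markers. The difference was 0.60 ± 0.06, or 1.52-fold (adjusted p = 2.38e-14), and 0.64 ± 0.05 without that array. Hspa12a and Hspa1b were higher by less (0.15 and 0.17). Hspa8, the constitutive Hsp70 that uncoats clathrin vesicles, and Hspa9, the mitochondrial Hsp70, were lower (-0.11 and -0.13). The third is Hspa12b, known from endothelium, whose difference of -0.19 is a description with no test, since its hippocampal mean lay under the filter limit. The near-identical pair Hspa1a and Hspa1b cannot be assigned with certainty. Hspa1a differed by 0.00 (adjusted p = 0.988), where Hspa1b had an adjusted p of 0.0258 that became 0.0662 with arrays centred on the median.

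Hspb3, known mainly from muscle and nerve, was at 5.16, 5.77 and 6.71 in hippocampus, against 6.06, 7.07 and 8.37 in prefrontal cortex. Its mean was 5.81 ± 0.34 in hippocampus and 7.10 ± 0.53 in prefrontal cortex (SD, n = 32 each), a log2 difference of -1.29. The hippocampal mean and median lay under the limit of the filter and Hspb3 was tested only through its cortical level, so this difference is a description with no test. Hspb8, which works with Bag3 in chaperone-assisted autophagy, was higher by 0.34 ± 0.11 (adjusted p = 0.00679, but 0.126 with RNA quality as a covariate), and Hspb11, a protein of the intraflagellar transport complex despite its name, by 0.25. Hspb1 differed by -0.01 (adjusted p = 0.867).

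The DnaJC genes, the most varied class and named only for the J domain they share, were mostly lower in hippocampus, with 3 higher and 14 lower of 25. Dnajc10, a disulfide reductase of the endoplasmic reticulum, was at 9.68, 10.04 and 10.30 in hippocampus and at 10.18, 10.38 and 10.60 in prefrontal cortex. The ranges overlapped in part, with a difference of -0.37 ± 0.03 (adjusted p = 2.76e-16). Dnajc21, a ribosome biogenesis factor, was lower by -0.63 ± 0.09, with a wider spread in prefrontal cortex (SD 0.47) than in hippocampus (SD 0.17). Next came Dnajc12, a partner of the aromatic amino acid hydroxylases (-0.29), Dnajc11 of the mitochondrial membrane (-0.21), Dnajc3, which inhibits the stress kinase PERK (-0.21), Dnajc25 (-0.20) and the endosomal Dnajc13 (-0.18). Those higher were the endoplasmic reticulum protein Dnajc1 (0.36), Dnajc18 (0.21) and Dnajc27 (0.09). Averaged over all their probe sets, Dnajc11 (-0.03), Dnajc13 (-0.07) and Dnajc27 (0.03) did not pass.

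By compartment, 4 of the 8 chaperones of the endoplasmic reticulum lumen were lower (Dnajb9, Dnajb11, Dnajc3 and Dnajc10) and Dnajc1 was higher, while the main ones, Hspa5 (-0.06, adjusted p = 0.248), Hsp90b1 (-0.06) and Hspa13 (-0.16), were not called. With matched hippocampal and cortical arrays as a block, a pairing chosen after seeing the data, 40 members were called, against 72.7% of genes. Hspa5 (-0.06 ± 0.02, adjusted p = 0.0117 in limma) and Hspa13 (-0.16 ± 0.04, adjusted p = 0.00094) were then lower, and Dnajc2 was not called (adjusted p = 0.0709, against 0.0436). All 3 genes of vesicle traffic, Dnajc5, Dnajc6 and Dnajc13, were lower (-0.05, -0.16 and -0.18). For Dnajc5, the cysteine string protein of synaptic vesicles, 2 of its 4 further probe sets were higher by 0.20, so the gene has no settled direction. Of 7 mitochondrial genes, 1 was higher (Hspd1, 0.08) and 3 lower. Dnaja4 was the 1 DnaJA gene of 4 that was called (0.29). Among Hsp90 and Hsp110 genes, Hsp90aa1 (-0.05), Hsph1 (-0.10) and Hspa4l (-0.19) were lower. Hsp90aa1 was not called without hippocampal replicate 4 of vehicle-treated Tg2576 mice (adjusted p = 0.0562), and 1 of its further probe sets was higher (0.04). Hsph1 was not called with signal range (-0.06, adjusted p = 0.163) or RNA quality as a covariate. Genes outside the 12 largest rises and falls are named here for their family or compartment, after their values were seen.

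Further probe sets existed for 26 of the 39 called members. Of 54 such probe sets tested, 33 were called in the same direction, 5 in the opposite one and 16 did not pass. The second probe set of Dnajb12 was higher (0.20), 1 of the 2 others of Dnajb4 was lower (-0.67), the other of Dnajb1 was lower (-0.38), and all 4 others of Dnajc1 were higher. Hspa4 was not called by its brightest probe set (0.03), but another of its probe sets was higher by 0.67 (adjusted p = 6.75e-16).

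The arrays with replicate numbers 1 to 4 alone gave 43 called members (9 higher and 34 lower, against 74.1% of genes called), and those with numbers 5 to 8 alone gave 37 (18 higher and 19 lower, against 60% of genes called). Of the 39 members, 33 kept their sign in both sets and 22 were called in both, 7 higher and 15 lower. The 22 include Hspb3, tested only through its cortical level. The share of all genes called in both sets is not given here, so the 22 have no background beside them. Dnajb12 differed by 0.46 and 0.42 in the 2 sets, Dnajb4 by -0.54 and -0.40, Dnajb1 by -0.59 and -0.42 and, as a description, Hspb3 by -1.31 and -1.27. Hspa2 differed by 0.39 and 0.82, and Dnajc21 by -0.84 and -0.42. The other 6 changed sign in 1 set, and they were Dnajb8, Dnajb14, Dnajc2, Dnajc15, Dnajc27 and Hspa12b.

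The cell-type markers moved with region too. Averaged dentate and CA pyramidal markers were higher in hippocampus by 3.32 and 2.16, and astrocyte markers by 0.49, with no overlap between regions. Cortical markers were lower in hippocampus by 1.4 (medians of 8.68 in hippocampus and 10.2 in prefrontal cortex). Striatal markers ran from 7.71 to 9.01 in hippocampus and from 7.77 to 11.06 in prefrontal cortex. Oligodendrocyte markers were higher by 0.56 and choroid plexus markers by 2.09, with overlap. Their part in the regional differences of the members was not tested. Whether the arrays of both regions were processed together is not given in the sources used here.

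Other genes of protein folding, from lists fixed by pathway, were also more often lower than higher in hippocampus. Among all genes tested, 33% were called higher and 39% lower, or 72.1% in either direction. Of 31 tested heat shock factors and co-chaperones, 5 were higher and 17 lower in hippocampus. Of 14 chaperonin and prefoldin genes, 1 was higher and 8 lower, and of 14 further genes of endoplasmic reticulum folding and stress, 1 was higher and 9 lower. Fkbp5, the glucocorticoid-inducible Hsp90 partner, was higher by 1.09 and Bag3, the partner of Hspb8, by 0.68, whereas Herpud1 (-0.41) and the prefoldin gene Pfdn2 (-0.42) were lower.

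PF-04447943 was set against vehicle in hippocampus over both genotypes. None of the 61 members passed the limma test, where 303 of 12967 genes did (2.34%). At an unadjusted p under 0.05 there were 12 members, 10 higher and 2 lower, which is 19.7% of members and close to the 21.6% of all genes. The log2 difference lay above 0 in 48 of 61 members (78.7%, against 64.5% of genes), with a median of 0.051 against 0.030.

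The member with the smallest p was Hsp90b1, the Hsp90 of the endoplasmic reticulum (GRP94), whose promoter is shown above. Its lowest, median and highest values were 11.27, 11.43 and 11.70 in Tg2576 mice given PF-04447943 and 10.86, 11.21 and 11.73 in Tg2576 mice given vehicle. In wild-type mice they were 11.42, 11.51 and 11.69 with PF-04447943 and 11.21, 11.36 and 11.57 with vehicle. The groups overlapped in both genotypes, and all 16 arrays of treated mice lay above the vehicle mean of their genotype. The difference was 0.19 ± 0.06, with 11.50 ± 0.13 in treated and 11.31 ± 0.21 in vehicle mice (SD, n = 16 each), and an adjusted p of 0.0677 in limma. It was 0.21 ± 0.08 in Tg2576 mice (adjusted p = 0.391) and 0.17 ± 0.08 in wild-type mice (adjusted p = 0.356). Without the array with the low dentate markers it was 0.17 ± 0.06 (adjusted p = 0.0825), without vehicle-treated Tg2576 replicate 5 it was 0.22 (adjusted p = 0.0137), and with replicate number as a term of 2 levels it passed (adjusted p = 0.0456). The second Hsp90b1 probe set differed by 0.10 ± 0.07 (adjusted p = 0.388).

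Dnajb9, a partner of Hspa5 that is induced by endoplasmic reticulum stress, was at 10.85, 10.94 and 11.08 in treated Tg2576 mice and at 10.51, 10.76 and 11.11 in vehicle Tg2576 mice. In wild-type mice it was at 10.84, 10.92 and 11.04 with PF-04447943 and at 10.76, 10.86 and 10.99 with vehicle. The vehicle range of Tg2576 mice enclosed the treated one. The difference was 0.11 ± 0.04 (adjusted p = 0.116), in its direction on 15 of 16 treated arrays, and passed without vehicle-treated Tg2576 replicate 5 (0.14, adjusted p = 0.0264).

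Hsp90aa1, the inducible cytosolic Hsp90, was at 13.31, 13.38 and 13.50 in treated Tg2576 mice, against 13.12, 13.31 and 13.44 with vehicle. In wild-type mice it was at 13.22, 13.39 and 13.51 with PF-04447943, against 13.17, 13.32 and 13.41 with vehicle. All 4 ranges overlapped, with a difference of 0.09 ± 0.03 (adjusted p = 0.131). Dnajc13 differed by 0.11 (adjusted p = 0.145) and Dnajb8 by -0.12 (adjusted p = 0.163).

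**Figure D3:**
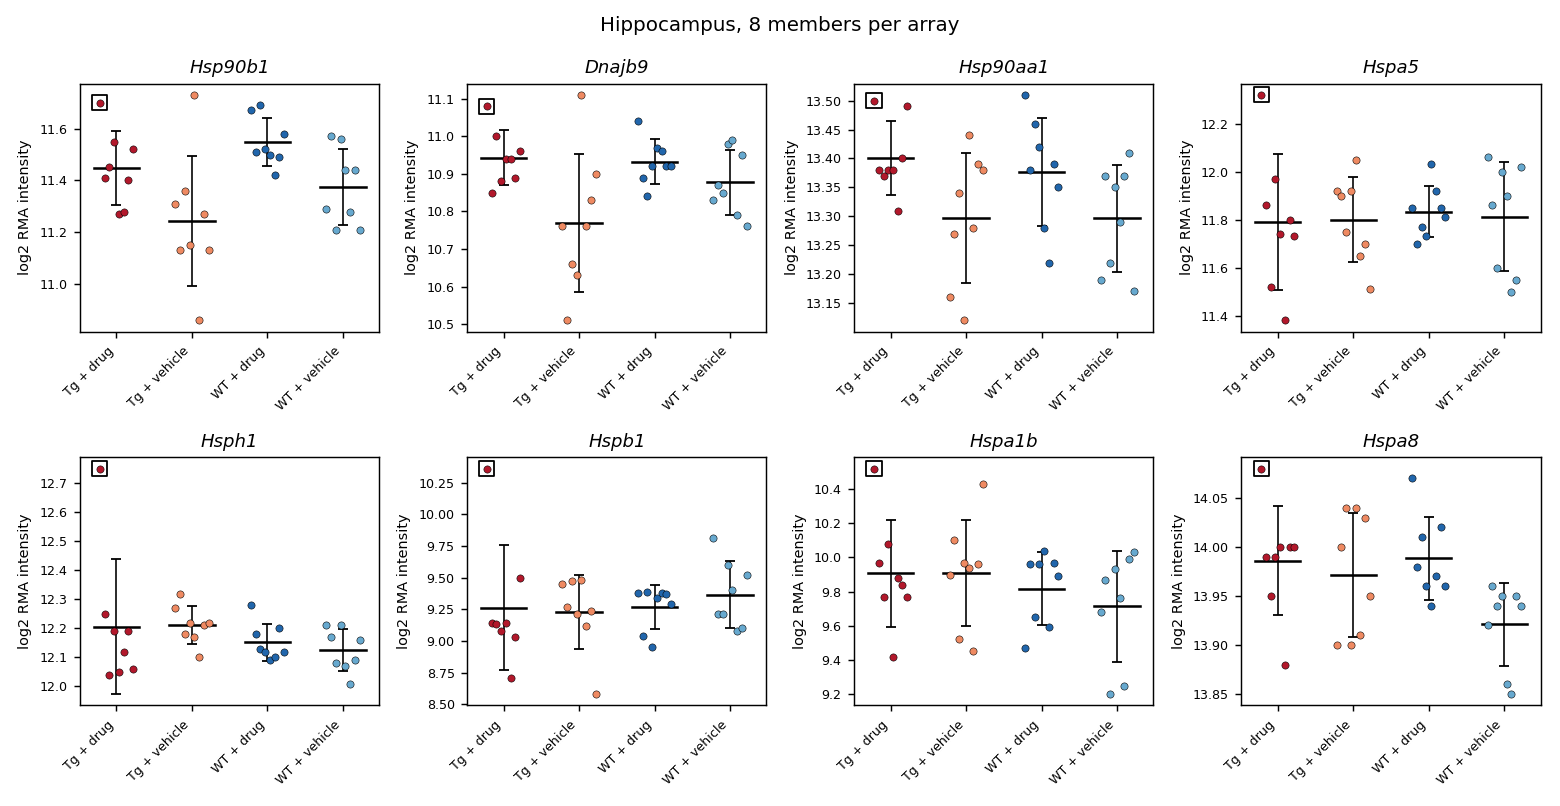
Log2 intensity of Hsp90b1, Dnajb9, Hsp90aa1, Hspa5, Hsph1, Hspb1, Hspa1b and Hspa8 on the 8 hippocampal arrays of each genotype and treatment, with mean and SD. The square marks the array with the low dentate markers, at 12.75 for Hsph1 and 10.36 for Hspb1.

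The 8 members of the endoplasmic reticulum lumen had differences at or above 0 in treated hippocampus, with a median of 0.08, and 3 had an unadjusted p under 0.05 (Hsp90b1, Dnajb9 and Dnajc10). Among all genes tested, 64.5% lay above 0, the median was 0.03 and 21.6% had such a p. Hspa5, the major chaperone of that compartment and a companion of Hsp90b1 in the stress response, differed by 0.00. Of the 14 further genes of endoplasmic reticulum folding and stress, none passed, 1 had an unadjusted p under 0.05 and 9 lay below 0. By replicate number the difference of Hsp90b1 was 0.24 ± 0.07 in numbers 1 to 4 (adjusted p = 0.0397) and 0.14 ± 0.09 in numbers 5 to 8 (adjusted p = 0.804), and that of Dnajb9 was 0.17 ± 0.05 (adjusted p = 0.0422) and 0.05 ± 0.05 (adjusted p = 0.844). Hspa13 differed by 0.37 ± 0.16 in the first set and -0.17 ± 0.17 in the second. Numbers 1 to 4 alone gave 5 called members (Dnajb9, Dnajc6, Dnajc14, Hsp90aa1 and Hsp90b1, against 8.96% of genes), and numbers 5 to 8 alone gave 0 members and 0 genes.

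The cytosolic stress-inducible genes showed no call with PF-04447943. Hspa1b differed by 0.05, Hspa1a by 0.09, Hsph1 by 0.01, Hspb1 by -0.03, Dnajb1 by 0.02 and Hspa8 by 0.04. In Tg2576 mice, Hspa1b was at 9.42, 9.86 and 10.52 with PF-04447943 and at 9.45, 9.95 and 10.43 with vehicle. In wild-type mice it was at 9.47, 9.92 and 10.04 with PF-04447943 and at 9.20, 9.81 and 10.03 with vehicle. These ranges lay nearly on top of each other in both genotypes. Among the other folding genes, Vbp1, a prefoldin subunit, was the 1 of 14 chaperonin and prefoldin genes that passed (0.26, adjusted p = 0.0395), and no co-chaperone of 31 did.

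The signal range of the arrays also moved with treatment. In wild-type hippocampi it was 3.65 ± 0.06 with PF-04447943 and 3.52 ± 0.08 with vehicle (SD, n = 8 each), a difference of 0.135 (two-sided exact permutation test, p = 0.00326, and 0.0261 adjusted over 8 comparisons). In Tg2576 hippocampi it was 3.60 ± 0.11 and 3.52 ± 0.12 (exact permutation p = 0.172). With signal range as a covariate, 1 gene of 12967 (0.00771%) was called for treatment and no member. In each genotype alone no member passed. Treated against vehicle Tg2576 mice gave 0 called genes (0%) and 8 members at an unadjusted p under 0.05 (13.1%, against 11.1% of genes), led by Dnajb9 (0.17), Dnajc10 (0.18), Hsp90b1, Dnajc6 (0.15) and Dnajc2 (0.15). Treated against vehicle wild-type mice gave 5 called genes (0.0386%), but 607 (4.68%) with array weights and 87 with number set as a term, and 7 members with such a p (11.5%, against 13.6% of genes), led by Hspb2 (-0.24), Dnajc21 (0.19), Dnajc7 (0.10), Dnajb12 (-0.12) and Dnajb8 (-0.15).

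In prefrontal cortex PF-04447943 gave no called member of 63 and 1 called gene (0.00773%), and 1 member had an unadjusted p under 0.05 in limma (1.59%, against 2.33% of genes). That member was Dnajc1, with 7.18 ± 0.21 in treated and 7.35 ± 0.14 in vehicle mice (SD, n = 16 each), a difference of -0.17 ± 0.06 (adjusted p = 1). After it came Dnajc2 (0.11), Dnajb5 (-0.13), Hspb3 (0.21) and Dnajc8 (-0.04). Hsp90b1 was at 11.45 ± 0.18 in treated and 11.48 ± 0.10 in vehicle mice. The treatment difference of Hsp90b1 in hippocampus minus that in prefrontal cortex was 0.22 ± 0.08, with an unadjusted p of 0.00586 and an adjusted p of 0.293. No member passed this test of the difference between regions and 1 gene did (0.00772%), while 4 members had an unadjusted p under 0.05 (6.35%, against 9.72% of genes), so a treatment difference particular to hippocampus was not shown for any member. The next members by p were Dnajc13 (0.12), Dnajb4 (0.13), Hspb2 (-0.16) and Dnajc1 (0.17).

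The transgene was tested as Tg2576 against wild-type mice over both treatments. In hippocampus 0 of 61 members passed and 12 of 12967 genes did (0.0925%), and 4 members had an unadjusted p under 0.05 in limma (6.56%, against 8.13% of genes). These were Dnajc14 (-0.12 ± 0.05, adjusted p = 0.537), Hspa12a (-0.15), Dnajc8 (0.07) and Hspb2 (0.12), followed by Hsp90b1 (-0.12 ± 0.06, adjusted p = 0.618). The stress-inducible and constitutive genes differed little, with Hspa1b at 0.14 ± 0.10, Hspa1a at 0.02, Hsph1 at 0.07, Dnajb1 at 0.03, Hspb1 at -0.07, Hsp90aa1 at 0.01, Hspa8 at 0.02 and Hspa5 at -0.03. Without the array with the low dentate markers Hsph1 was at 0.03, Hspb1 at -0.15 and Hspa1b at 0.10, and none of them passed. Dentate granule cell markers had a median difference of -0.40, below 0 for all 5 genes, and their part was not tested.

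In vehicle-treated mice alone the hippocampal comparison of Tg2576 with wild type gave no called member and 1 called gene (0.00771%). At an unadjusted p under 0.05 there were 3 members (4.92%, against 5.62% of genes), and the order by p began with Dnajc3 (-0.21), Dnajc14 (-0.17), Dnajc21 (0.17), Dnajb9 (-0.11) and Dnajb12 (-0.09). In mice given PF-04447943 no gene was called (0%) and 2 members had such a p (3.28%, against 5% of genes), led by Hspb2 (0.24), Dnajc22 (0.15), Hspb6 (0.30), Dnajc9 (-0.14) and Dnajc8 (0.08).

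In prefrontal cortex 0 of 63 members and 6 of 12933 genes (0.0464%) passed for the transgene. At an unadjusted p under 0.05 there were 9 members, all higher in Tg2576 (14.3%, against 12.2% of genes). Dnajc13, a DnaJ protein of early endosomes, was at 9.07, 9.12 and 9.35 in Tg2576 mice given PF-04447943 and at 8.94, 9.04 and 9.18 in wild-type mice given PF-04447943. With vehicle it was at 9.08, 9.17 and 9.24 in Tg2576 and at 8.97, 9.07 and 9.20 in wild-type mice. The ranges overlapped, while on all 16 Tg2576 arrays the value was above the mean of wild-type mice given the same agent. The difference was 0.10 ± 0.03, and the means were 9.16 ± 0.08 (Tg2576) and 9.06 ± 0.07 (wild type), each over 16 arrays with the SD (adjusted p = 0.285).

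Hspa2 was at 8.71, 8.96 and 9.37 in Tg2576 mice given PF-04447943 and at 8.63, 8.91 and 9.10 in wild-type mice given PF-04447943. With vehicle it was at 8.81, 9.13 and 9.42 in Tg2576 and at 8.49, 8.82 and 9.17 in wild-type mice. The overlap was broad, and the difference was 0.21 ± 0.07 (adjusted p = 0.302). Dnaja4 (0.13), Dnajb12 (0.07) and Dnajc9 (0.12) followed. Of the stress-inducible genes, Hspa1b differed by 0.18, Hspa1a by 0.09, Hsph1 by 0.05, Dnajb1 by 0.03, Hsp90aa1 by -0.01 and Hspb1 by -0.14, and Hspa8 and Hspa5 differed by 0.04 and -0.05. Striatal markers had a median difference of 0.37 here, above 0 for all 4 genes tested, and their part was not tested.

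Within a treatment, the cortical comparison of Tg2576 with wild type gave no called gene (0%). With vehicle 12 members had an unadjusted p under 0.05 (19%, against 12.1% of genes), led by Dnaja4 (0.23), Hspa2 (0.30), Dnaja2 (0.13), Dnajc22 (-0.17) and Dnajc17 (-0.24). With PF-04447943 there were 3 (4.76%, against 3.68% of genes), and the smallest p were those of Hspb3 (-0.68 ± 0.23, adjusted p = 0.99), Dnajc13 (0.11), Dnajb12 (0.09), Hspb2 (-0.13) and Hspa14 (0.21). PF-04447943 against vehicle in cortex gave 0 called genes in each genotype (0%), with Dnajc17 (0.22), Dnajc1 (-0.21), Dnaja2 (-0.09), Dnajc8 (-0.08) and Dnajc22 (0.11) first in Tg2576 and Hspb3 (0.61), Dnajb5 (-0.27), Hspb2 (0.14), Hspa4l (0.16) and Dnajc22 (-0.10) first in wild type, and 2 members in each with an unadjusted p under 0.05 (3.17%, against 3.01% of genes in Tg2576 and 2.52% in wild type).

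**Figure D4:**
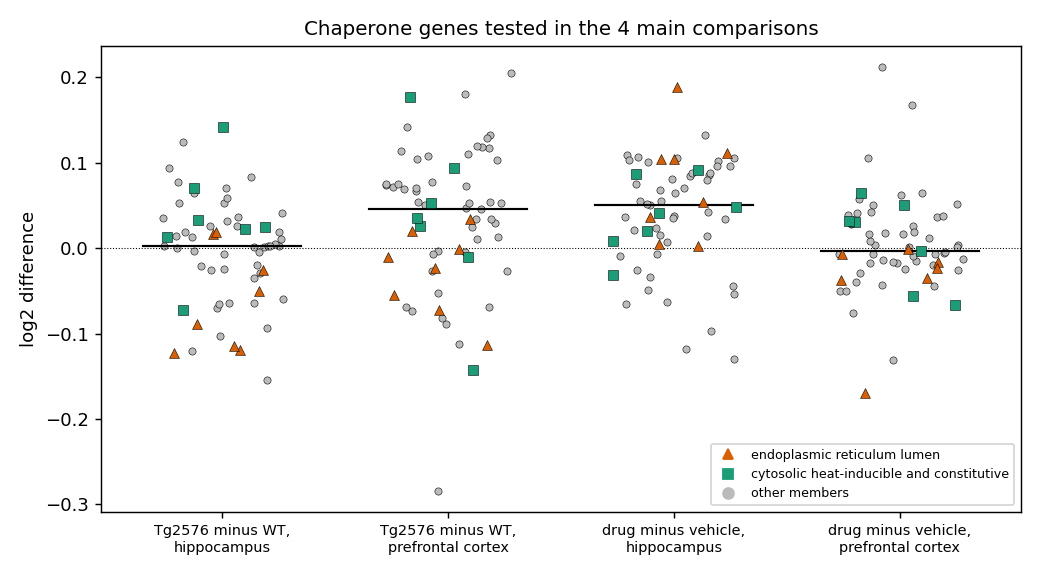
Log2 differences of the tested members for PF-04447943 minus vehicle and Tg2576 minus wild type in each region, with the median as a bar. Triangles are the 8 members of the endoplasmic reticulum lumen, squares the other genes given for every comparison, and the largest difference in size is -0.28 in any of the 4.

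Whether the treatment acted differently by genotype was tested as an interaction. No member and no gene passed in hippocampus (0%), where 1 member had an unadjusted p under 0.05 in limma (1.64%, against 2.78% of genes). The smallest p were those of Dnajb12 (0.18), Hspb2 (0.23), Dnajc22 (0.17), Hspb6 (0.41) and Dnajc21 (-0.18). In prefrontal cortex again no gene passed (0%), and 6 members had such a p (9.52%, against 3.31% of genes), led by Dnajc17 (0.34), Hspb3 (-0.80 ± 0.32, unadjusted p = 0.018), Dnaja2 (-0.16), Dnajc22 (0.21) and Hspb2 (-0.21). The transgene difference in hippocampus minus that in prefrontal cortex passed for no member and no gene (0%), with Dnajc9 (-0.19, adjusted p = 0.68), Dnajc14 (-0.23), Hspa12a (-0.18), Hspa2 (-0.23) and Hspb2 (0.15) first and 4 members at an unadjusted p under 0.05 (6.35%, against 7.04% of genes).

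Arrays of a group varied more in some members than in others. In hippocampus the residual SD on the log2 scale was largest in Hspb8 (0.462), Hspa13 (0.390), Hspb6 (0.341), Hspb1 (0.328) and Hspa1b (0.293). It was smallest in Dnajb6 (0.039), Dnaja2 (0.048) and Hspa8 (0.051). In prefrontal cortex the order began with Hspa13 (0.507), Dnajc21 (0.489), Hspb3 (0.478), Hspb8 (0.475) and Dnajc24 (0.312), and ended with Dnajc5 (0.055), Hspa8 (0.058) and Dnajc7 (0.060). The median over members was 0.139 in hippocampus and 0.154 in prefrontal cortex, against 0.154 and 0.163 over all genes. Differences between the number sets and in signal range were not taken out of these SD. For the cortical members of largest SD, r with the signal range ran from 0.11 (Hspb3) to 0.88 (Dnajc24).

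Pairs of 5 stress-inducible genes (Hspa1b, Hsph1, Dnajb1, Hsp90aa1 and Hspb1) were correlated across the 32 arrays of a region after the group means were taken out. Of 20 pairs in both regions, 8 had a permutation p under 0.05 after Benjamini-Hochberg adjustment over the 20. In hippocampus Hspa1b and Hsph1 had r = 0.56 and rho = 0.49 (permutation p = 0.00159 and 0.00629, adjusted 0.00795 and 0.0252). The r was 0.44 without the 2 most distant arrays and 0.42 without the array with the low dentate markers (adjusted permutation p = 0.0783). Hsph1 and Hspb1 had r = 0.66 and rho = 0.36 (permutation p = 0.0167 and 0.0567, adjusted 0.0477 and 0.142), and r was 0.28 without those 2 arrays and 0.21 without the array with the low dentate markers, so that this relation rests on those arrays. Dnajb1 and Hspb1 had r = 0.38 and rho = 0.45 (permutation p = 0.0191 and 0.0152, adjusted 0.0477 and 0.0505), and r was 0.42 without the 2 most distant arrays. Its call too was lost without the array with the low dentate markers (r = 0.43, adjusted permutation p = 0.0794), and without replicate 4 of treated wild-type mice (r = 0.34, adjusted permutation p = 0.128).

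In prefrontal cortex Hspa1b and Hsph1 had r = 0.44 and rho = 0.42 (permutation p = 0.011 and 0.0228, adjusted 0.0367 and 0.0652), and r was 0.45 without the 2 most distant arrays. Without replicate 2 of Tg2576 mice given PF-04447943, r was 0.31 (adjusted permutation p = 0.218). Hsph1 with Dnajb1 had r = 0.58 and rho = 0.68 (permutation p = 0.00111 and 6e-05, adjusted 0.0074 and 0.0012), Hsph1 with Hspb1 r = 0.65 and rho = 0.64 (permutation p = 0.0008 and 0.00052, adjusted 0.0074 and 0.0052), and Dnajb1 with Hspb1 r = 0.61 and rho = 0.58 (permutation p = 0.00036 and 0.00086, adjusted 0.0072 and 0.00573). Without 2 arrays these r were 0.73, 0.55 and 0.57. Hsp90aa1 and Hspb1 went opposite ways, with r = -0.54 and rho = -0.54 (permutation p = 0.00357 and 0.00149, adjusted 0.0143 and 0.00745) and r = -0.50 without 2 arrays. The signal range of the arrays moved with these genes, since with it as a covariate r was 0.03 for Hsph1 with Dnajb1, 0.34 for Hsph1 with Hspb1, 0.30 for Dnajb1 with Hspb1 and -0.39 for Hsp90aa1 with Hspb1, whereas Hspa1b with Hsph1 stayed at 0.46. In hippocampus the same covariate left r at 0.55 for Hspa1b with Hsph1 and 0.53 for Dnajb1 with Hspb1.

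The labels do not state which hippocampal and cortical arrays came from the same mouse. The data hold 24 probe sets, none of them one used for a member, whose log2 values fall into 2 levels more than 0.8 apart, with 8 or more of the 64 arrays at each level and shares of the upper level that differ by less than 0.15 between regions. Within its own group, each of the 32 hippocampal arrays carried the same pattern of levels as 1 cortical array, with 0 mismatches, and at least 3 mismatches with any other. Of these 32 pairs, 26 shared a replicate number, and in Tg2576 mice given PF-04447943 hippocampal replicates 1 to 6 paired with cortical replicates 2, 3, 4, 5, 6 and 1. This pairing was chosen after seeing the data.

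Over these matched arrays the deviation from the group mean in hippocampus was correlated with that in prefrontal cortex for 12765 genes. Of 61 members 9 were called, 7 with r above 0, against 1103 genes (8.64%), 780 of them with r above 0 (6.11%). With arrays paired by replicate number instead, 3 members were called, 2 with r above 0, against 527 genes (4.13%). With signal range and number set as covariates, 9 members were called, against 1598 genes (12.5%). Over the matched arrays without covariates the median r was 0.03 over members and over all genes. Hspa13, an Hsp70-like ATPase of microsomes, had r = 0.89 and rho = 0.89 (permutation p = 1e-05 for each, the smallest that the resampling can give, adjusted p = 0.00234 for r), and r was 0.86 without the 2 most distant pairs. In Tg2576 mice given PF-04447943, its value was 9.85 in hippocampal replicate 1 and 10.26 in the paired cortical replicate 2, and 8.78 in hippocampal replicate 8 and 9.14 in cortical replicate 8. High and low values came in pairs. Of the 3 other Hspa13 probe sets, r was 0.86 and 0.73 in 2 and -0.32 in the third, so its probe sets disagree.

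Hspa5 had r = 0.85 (rho = 0.82), Hspe1 0.79 (rho = 0.83), Hsph1 0.77 (rho = 0.65) and Hspb8 0.76 (rho = 0.79), each with an adjusted permutation p of 0.00234. For these, r without the 2 most distant pairs was 0.78, 0.78, 0.55 and 0.71. Hspb1 had r = 0.62 (rho = 0.54, adjusted permutation p = 0.0244) and Hspa1b r = 0.53 (rho = 0.42, adjusted permutation p = 0.031), and without 2 pairs these were 0.55 and 0.43. Without the array with the low dentate markers and its pair, Hsph1 had r = 0.57 (adjusted permutation p = 0.0364) and Hspa1b 0.46 (adjusted permutation p = 0.102). All 3 Hspb8 probe sets were alike (0.76, 0.75 and 0.67). Dnajb14 (-0.57) and Hspa14 (-0.59) were called with r below 0, and r was -0.02 and 0.05 once signal range and number set were taken out. With those terms Hspa13 had r = 0.96, Hspa5 0.58, Hspe1 0.76, Hsph1 0.76, Hspb8 0.73, Hspa1b 0.53 and Hspb1 0.32 (adjusted permutation p = 0.368 for Hspb1).

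**Figure D5:**
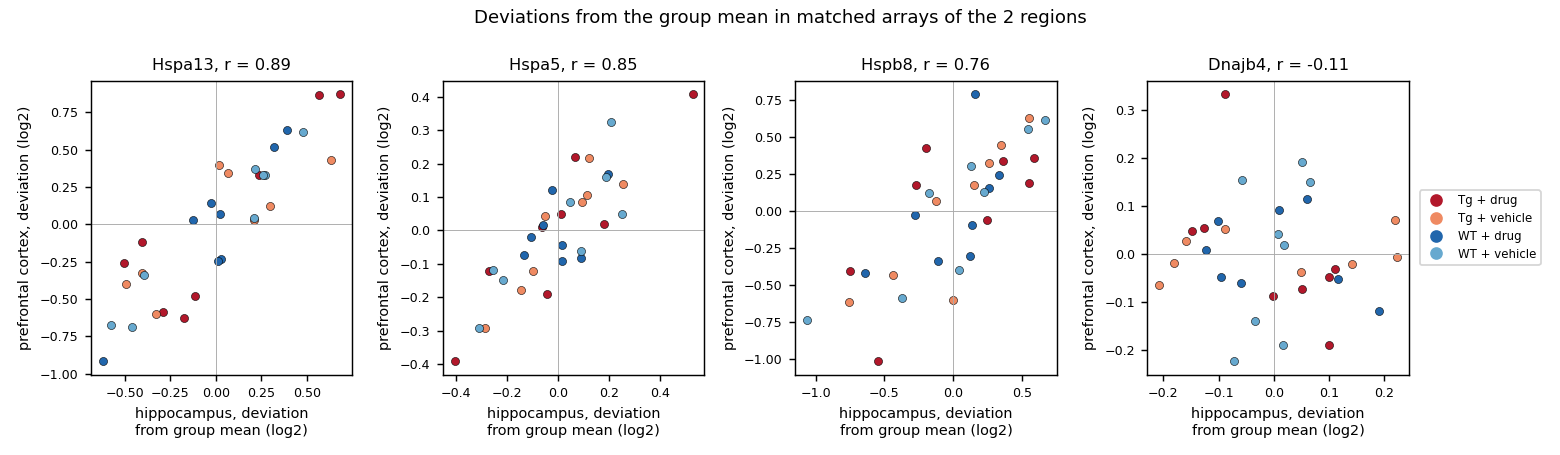
Deviation from the group mean (log2) in hippocampus on the x axis and in prefrontal cortex on the y axis over 32 matched pairs of arrays, for Hspa13, Hspa5, Hspb8 and Dnajb4. The pairs lie along a rising line for the first 3 (r = 0.89, 0.85 and 0.76) and form a cloud for Dnajb4 (r = -0.11).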

How the data were processed

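Each of 64 RNA samples (8 groups of 8) was hybridised to 1 Affymetrix mouse array of 45101 probe sets. The deposited intensity values were RMA values of the authors (per the submitters' processing notes). Its version is not given in the sources used here, nor is whether all arrays were normalized together. The values are linear and were converted to log2. Gene symbols came from GEO's platform table, updated by Entrez ID through RefSeq (GRCm38.p6), which changed 0 member symbols. In all, 34958 probe sets had 1 symbol, 932 several and 9160 none, and only those with 1 were used. Arrays have no read depth, so their number limits the precision.

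The members and lists were chosen with earlier results of these data known. The text names members past the threshold, at most the 12 largest rises and 12 largest falls, or, with fewer than 5 passing, the 5 of smallest p, and, for the main effects, Hspa1a, Hspa1b, Hsph1, Dnajb1, Hsp90aa1, Hspb1, Hspa8 and Hspa5. Other pathway genes are given as counts with at most 6 named. Groups were compared with limma 3.58.1 (R 4.3.3), lmFit and eBayes, in a fit of 4 groups per region and of 8 groups for regional contrasts, and p-values were adjusted by Benjamini-Hochberg over every tested gene. Tested genes had a mean at or above the 40th percentile of probe sets. The scripts were tested on simulated data. Correlations used deviations from group means and 100000 permutations (SciPy 1.17.1), with 20000 for the adjustment over all genes. The labels do not state that each array of a group is a separate animal, so p-values measure the spread between these samples. Alternatives were the filter, the probe set rule, normalization, array weights, signal range and RNA quality covariates, a replicate block, number sets and leaving out each array.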

Additional observations from a re-analysis of the deposited data

Results flagged for a closer look

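The 48 groups of 8 arrays whose members have values in the text were each searched for a single array far from the others. An array was listed where its gap to the next, divided by the range of the group, was above 0.526, which chance gives in about 1 in 20 groups, and 3 were listed. In Tg2576 hippocampi given PF-04447943, Hsph1 was at log2 12.75 on replicate 1, against 12.25 on the next array, with a group median of 12.15. This is the array with the low dentate markers, and it was the highest of its group in 7 of the 8 genes given for every comparison. In Tg2576 prefrontal cortex given PF-04447943, Hsph1 was at 12.88 on replicate 2, against 12.36 on the next array, with a group median of 12.27. These 2 arrays carry the same pattern of 2-level probe sets. The cortical one was the highest of its group in 3 of the same 8 genes, which include the near-identical Hspa1a and Hspa1b. In vehicle-treated Tg2576 hippocampi, Hspb1 was at 8.58 on replicate 8, against 9.12 on the next array, with a group median of 9.25. The other groups of Hsph1 had a range of 12.10 to 12.32 in vehicle Tg2576, 12.09 to 12.28 in treated wild-type and 12.01 to 12.21 in vehicle wild-type hippocampi.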

How the results depend on the processing

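For a difference that was not called, a value within its SE of 0 in either fit was given no direction. Of the log2 differences of named members recomputed under alternatives, 1535 kept their direction and their side of the threshold, 19 lost it, 9 gained it and 6 reversed. Over the alternatives that kept all arrays, the regional count of 39 members ran from 34 with RNA quality as a covariate (against 67.7% of genes) to 48 with array weights (against 75.8%). It ran from 37 to 43 without each array in turn, and 24 of the 39 were called in all 12 of the whole-array alternatives. A member that an alternative did not test counts as not called there, and the 60th percentile filter tested 55 members. For wild-type mice given PF-04447943, the regional count was 32 with array weights, where 56.1% of genes were called. Without weights it was 20, where 43.1% were. Dnajc2 and Dnajc15 changed sign in 1 set of replicate numbers, as said above. Reversed among the members recomputed under every alternative were Dnajb14 (-0.03 with the mean of probe sets and -0.06 in replicate numbers 1 to 4), Hsp90aa1 (0.01 with the mean of probe sets), Dnajc27 (-0.01 in numbers 1 to 4), Dnajb8 (-0.03 in numbers 5 to 8) and Hspa12b (0.05 in numbers 5 to 8), and the cause was not tested. With PF-04447943 in hippocampus the count of 0 members became 2 with no filter (Dnajb13 and Dnajc5g, both lower), 1 with quantile normalization (Dnajb13, lower), 1 with number set as a term (Hsp90b1), 5 in numbers 1 to 4 alone, and between 0 and 2 without each array in turn. In wild-type mice alone it became 2 with array weights (Dnajc21 and Hspb2), against 607 of 12967 genes (4.68%). The genes called for treatment over both genotypes, 303, were 1 with signal range as a covariate, 852 with no filter, 1162 in numbers 1 to 4 alone and 0 in numbers 5 to 8 alone. With the replicate number as a block, 1 member passed for treatment in hippocampus (Hsp90b1, 0.19, adjusted p = 0.0493 in limma) and 38 for region (against 71.8% of genes). The block changed no other count of members by over 1.5 times. It called 743 genes for treatment in hippocampus (303 without it), 22 in wild type alone (5 without it), 19 for the transgene in prefrontal cortex (6 without it) and 6 with vehicle alone (0 without it). The labels do not say that a number marks a shared animal, and same-numbered arrays correlated between -0.272 and 0.472 in pairs of hippocampal groups and between -0.513 and 0.563 in pairs of cortical groups, so the block is only an alternative. Of the 20 correlated pairs, 8 were called, against 3 with signal range as a covariate, 4 without the array with the low dentate markers and its pair, and between 5 and 9 without each array in turn. The number of arrays limits what small differences could be detected.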
